A study of Mus musculus with 12 samples.

Results

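The guanylate-binding proteins Gbp2, Gbp3, Gbp4, Gbp5, Gbp6, Gbp7, Gbp8 and Gbp9 were followed in RNA sequencing libraries of bone marrow-derived macrophages (BMDMs). These 8 genes were chosen by symbol from the 43131 genes of the deposited count table, and all 8 passed the filter on low counts in every comparison. The table holds 12 libraries of C57BL/6 BMDMs in 4 groups of 3. Bone marrow cells had been grown for 7 days in 50 ng/mL of M-CSF, and the libraries headed LPS+ came from cells then given 1 µg/mL of lipopolysaccharide (LPS), a ligand of Toll-like receptor 4 (TLR4), for 6 h. The column headings are LPS- tlr4f/f, LPS+ tlr4f/f, then LPS- tlr4f/f-lysM-cre, and last LPS+ tlr4f/f-lysM-cre. A value "under" a heading is one in its 3 libraries. All 4 carry loxP sites in both copies of Tlr4 (tlr4f/f), and the lysM-cre groups also carry Cre recombinase under the lysM (Lyz2) promoter, which is active in myeloid cells, so that recombination depends on Lyz2 expression during differentiation. The labels do not say that the 3 libraries of a group came from separate mice, so p-values measure only the spread between these libraries, which may be technical. The comparisons ask which transcripts of LPS-treated macrophages depend on myeloid Tlr4.

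Guanylate-binding proteins are large GTPases of the dynamin superfamily. Interferons induce them, in part through IRF1, and macrophages that sense LPS through TLR4 and the adaptor TRIF make interferon-beta, which acts back on the same cells. The proteins gather on vacuoles that hold microbes and on bacteria in the cytosol, where they help to release bacterial products to inflammasomes. Mouse members lie in 2 clusters. In mm10, Gbp5 (chr3:142496934-142522344), Gbp7 (chr3:142530336-142550151), Gbp3 (chr3:142560016-142573213) and Gbp2 (chr3:142620663-142638008) follow each other on the plus strand of chromosome 3, with Gbp2b between Gbp3 and Gbp2. Gbp8 (chr5:105012513-105053609), Gbp9 (chr5:105076464-105110357), Gbp4 (chr5:105115767-105139586) and Gbp6 (chr5:105270702-105295871) lie on the minus strand of chromosome 5.

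Promoters are shown with the motif through which interferon acts, the core of the interferon-stimulated response element (GAAA, any 2 bases, GAAA, searched on both strands). RefSeq sequences (GRCm38.p6, plus strand) matched 4 of the 8 genes, Gbp2, Gbp3, Gbp5 and Gbp7, and also Gbp2b. Gbp4, Gbp6, Gbp8 and Gbp9 were not searched. Capitals mark the core, which in these windows is written from the opposite strand as TTTC, any 2 bases, TTTC, and in Gbp3 2 cores overlap.
Gbp5 (chr3:142496754-142496793): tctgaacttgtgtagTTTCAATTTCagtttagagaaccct
Gbp7 (chr3:142530268-142530307): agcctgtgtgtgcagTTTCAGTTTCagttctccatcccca
Gbp3 (chr3:142559984-142560029): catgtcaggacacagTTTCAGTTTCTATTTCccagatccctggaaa
Gbp2b (chr3:142594695-142594734): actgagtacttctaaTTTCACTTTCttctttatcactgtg
Gbp2 (chr3:142620589-142620628): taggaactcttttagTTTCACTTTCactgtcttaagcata

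Each of these 5 genes held the core in the 300 bases around a start site, as did 3.99% of 27025 genes with promoters of that length in the table. Its first base lay at -165 in Gbp5, -137 in Gbp2b, -59 in Gbp2, -53 in Gbp7 and -45 in Gbp3, counted from the start site of the promoter searched. In Gbp3 this start site belongs to the promoter chr3:142559794-142560093 and lies downstream of the gene start given above. In Gbp2b, too, it lies downstream of the annotated gene start. Gbp3 has a second promoter in the table, which held none and is not drawn. A gamma-activated sequence (TTCNNNGAA, present in 9.55% of genes) was found in Gbp5 at -245 and -52 and in Gbp7 at -106 and -87. A match to the kB consensus, present in 5.14% of genes, was found in Gbp5 at -77. These matches describe the letters of the windows only.

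**Figure D1:**
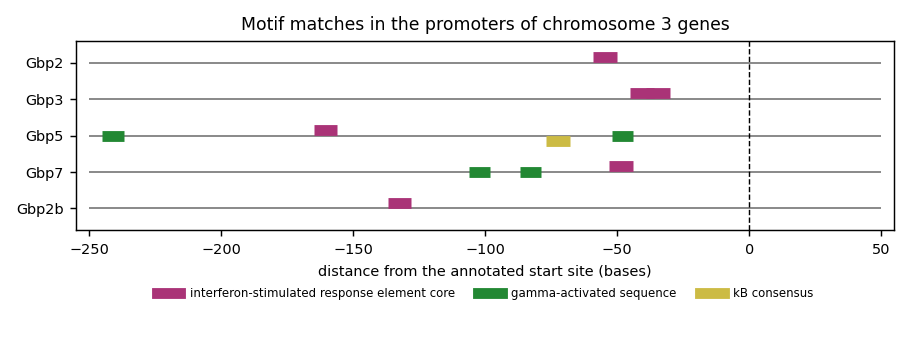
Positions of motif matches, in bases from the annotated start site, in the 300-base promoters of 5 chromosome 3 genes. Each bar is 1 match, and the interferon-stimulated response element core occurs in every promoter drawn, between -165 and -30.

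Each library held between 33577087 and 56445268 counts, with a median of 45330681, after 1 transcript row was kept for each gene. Values are given as CPM, the counts scaled to library size with TMM factors, with the SD over 3 libraries. Tlr4, the targeted gene, was at 115 ± 35.3 CPM under LPS- tlr4f/f and 110 ± 12.5 CPM under LPS- tlr4f/f-lysM-cre, against 27.7 ± 3.40 CPM under LPS+ tlr4f/f and 25.6 ± 1.64 CPM under LPS+ tlr4f/f-lysM-cre. Lyz2, the gene that carries Cre, averaged 13101 and 7585 CPM in the first pair and 11.8 and 62.3 CPM in the second. Il1b, a cytokine gene that LPS induces, averaged 4223 CPM under LPS- tlr4f/f-lysM-cre and 2599 CPM under LPS+ tlr4f/f-lysM-cre, against 3.70 CPM under LPS- tlr4f/f and 3.21 CPM under LPS+ tlr4f/f. These 3 genes go against the heading LPS- tlr4f/f-lysM-cre and the heading LPS+ tlr4f/f, which may be exchanged. The groups are therefore named by their headings, and each comparison is given in both readings. The comparison of LPS+ tlr4f/f-lysM-cre with LPS- tlr4f/f reads the same either way. All 8 macrophage markers, F4/80 (Adgre1), Csf1r and Lyz2 among them, were present in all 12 libraries. Their levels were not even. They summed to 12630 to 28254 CPM under LPS- tlr4f/f and 14568 to 19029 CPM under LPS- tlr4f/f-lysM-cre. The sums were 4025 to 4275 CPM under LPS+ tlr4f/f and 5836 to 5992 CPM under LPS+ tlr4f/f-lysM-cre. Lyz2 alone gave 6565 to 23256 CPM of the sums under LPS- tlr4f/f and 5948 to 9487 CPM under LPS- tlr4f/f-lysM-cre. It gave 10.3 to 14.3 CPM under LPS+ tlr4f/f and 52.6 to 75.6 CPM under LPS+ tlr4f/f-lysM-cre. Of the T cell markers, Cd3e, Cd3d and Cd8a had at most 3 counts in every library and Cd4 had 22 to 114. Of the neutrophil markers, Ly6g had at most 3, S100a8 had 25 to 4028, S100a9 had 3 to 1057, Mpo had 0 to 178 and Elane had 0 to 35. The summed level of 4 fibroblast markers (Col1a1, Col1a2, Dcn and Pdgfra) was 599, 55.3 and 5.74 CPM under LPS- tlr4f/f, 821, 120 and 1210 CPM under LPS- tlr4f/f-lysM-cre, 14.5 to 19.5 CPM under LPS+ tlr4f/f and 22.6 to 30.9 CPM under LPS+ tlr4f/f-lysM-cre.

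The 8 genes together were high under LPS- tlr4f/f-lysM-cre as well as LPS+ tlr4f/f-lysM-cre, and low under LPS- tlr4f/f as well as LPS+ tlr4f/f. Their summed level was 6945 ± 1447 CPM under LPS- tlr4f/f-lysM-cre and 3104 ± 128 CPM under LPS+ tlr4f/f-lysM-cre, against 141.5 ± 78.0 CPM under LPS- tlr4f/f and 83.3 ± 8.92 CPM under LPS+ tlr4f/f. This was between 0.441% and 0.574% of all counts under LPS- tlr4f/f-lysM-cre, and between 0.00920% and 0.0109% under LPS+ tlr4f/f. In bulk RNA, fewer cells that express a gene and less RNA per cell cannot be told apart.

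Gbp2, which carries a lipid anchor and is recruited to vacuoles that hold Toxoplasma, was at 35.7, 32.2 and 8.63 CPM under LPS- tlr4f/f and at 29.9, 41.9 and 28.6 CPM under LPS+ tlr4f/f. It was at 1870, 2897 and 1455 CPM under LPS- tlr4f/f-lysM-cre and at 1301, 1390 and 1267 CPM under LPS+ tlr4f/f-lysM-cre. The low groups overlapped each other, and every library of the high groups was at least an order of magnitude above them.

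Gbp5, known for its part in activation of the NLRP3 inflammasome, was at 6.72, 5.23 and 0.654 CPM under LPS- tlr4f/f and 2.16, 3.46 and 2.56 CPM under LPS+ tlr4f/f. Under LPS- tlr4f/f-lysM-cre it was at 1667, 1890 and 1350 CPM, and under LPS+ tlr4f/f-lysM-cre at 527, 603 and 629 CPM. Its low groups overlapped, and its high groups did not, with all 3 values under LPS- tlr4f/f-lysM-cre above all 3 under LPS+ tlr4f/f-lysM-cre.

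Gbp3, found on vacuoles of Toxoplasma, was at 42.8, 21.4 and 5.08 CPM under LPS- tlr4f/f and 10.4, 14.7 and 10.2 CPM under LPS+ tlr4f/f. It was at 1593, 1416 and 912 CPM under LPS- tlr4f/f-lysM-cre and 511, 542 and 570 CPM under LPS+ tlr4f/f-lysM-cre. Gbp7, which has been linked to assembly of the phagocyte oxidase, was at 51.1, 24.6 and 2.73 CPM under LPS- tlr4f/f, 14.8, 14.9 and 18.1 CPM under LPS+ tlr4f/f, 1004, 820 and 642 CPM under LPS- tlr4f/f-lysM-cre and 461, 460 and 534 CPM under LPS+ tlr4f/f-lysM-cre. Both genes had the order of Gbp5, with overlap of the low groups and none of the high groups.

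On chromosome 5, the means of the low groups were further apart. Gbp4 was at 3.09, 1.11 and 0.448 CPM under LPS- tlr4f/f and at 0.126, 0.307 and 0.275 CPM under LPS+ tlr4f/f, where its counts were between 6 and 16. It was at 137, 104 and 75.8 CPM under LPS- tlr4f/f-lysM-cre and 11.6, 12.1 and 15.4 CPM under LPS+ tlr4f/f-lysM-cre. None of the 4 groups overlapped.

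Gbp6 was at 15.1, 13.6 and 1.63 CPM under LPS- tlr4f/f and 2.14, 2.00 and 0.843 CPM under LPS+ tlr4f/f. It was at 601, 579 and 511 CPM under LPS- tlr4f/f-lysM-cre and 71.7, 86.2 and 90.2 CPM under LPS+ tlr4f/f-lysM-cre. Its low groups overlapped through replicate 3 of LPS- tlr4f/f. A GENCODE transcript of Gbp6 shares 70.1% of its 50-base windows with another Gbp transcript, mostly with Gbp10. That transcript has 2604 bases and the row counted 4523, for which the share was not measured. Gm43302 also overlaps Gbp6 in the annotation, so reads may have been split between these genes.

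Gbp9, which like Gbp3 and Gbp6 is found on vacuoles of Toxoplasma, was at 64.0, 42.3 and 43.3 CPM under LPS- tlr4f/f and 20.02, 15.9 and 16.0 CPM under LPS+ tlr4f/f. It was at 401, 490 and 416 CPM under LPS- tlr4f/f-lysM-cre and 73.2, 68.0 and 87.9 CPM under LPS+ tlr4f/f-lysM-cre. None of its 4 groups overlapped, and its lowest group was within an order of magnitude of the LPS+ tlr4f/f-lysM-cre libraries, unlike Gbp2 to Gbp7.

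Gbp8 was low in every library. It was at 1.23, 0.497 and 1.25 CPM under LPS- tlr4f/f, 0.966, 1.13 and 0.405 CPM under LPS- tlr4f/f-lysM-cre, 0.230, 0.230 and 0.138 CPM under LPS+ tlr4f/f and 0.578, 0.441 and 0.577 CPM under LPS+ tlr4f/f-lysM-cre. Its counts were between 8 and 11 under LPS+ tlr4f/f and between 16 and 26 under LPS+ tlr4f/f-lysM-cre. Its values under LPS+ tlr4f/f stood below all others. Replicate 3 of LPS- tlr4f/f was the lowest library of that group for Gbp2 to Gbp7, but not for Gbp8 or Gbp9. It also had the lowest fibroblast markers, and replicate 1, highest for Gbp2 to Gbp7, had the highest, whose part in the values was not tested.

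**Figure D2:**
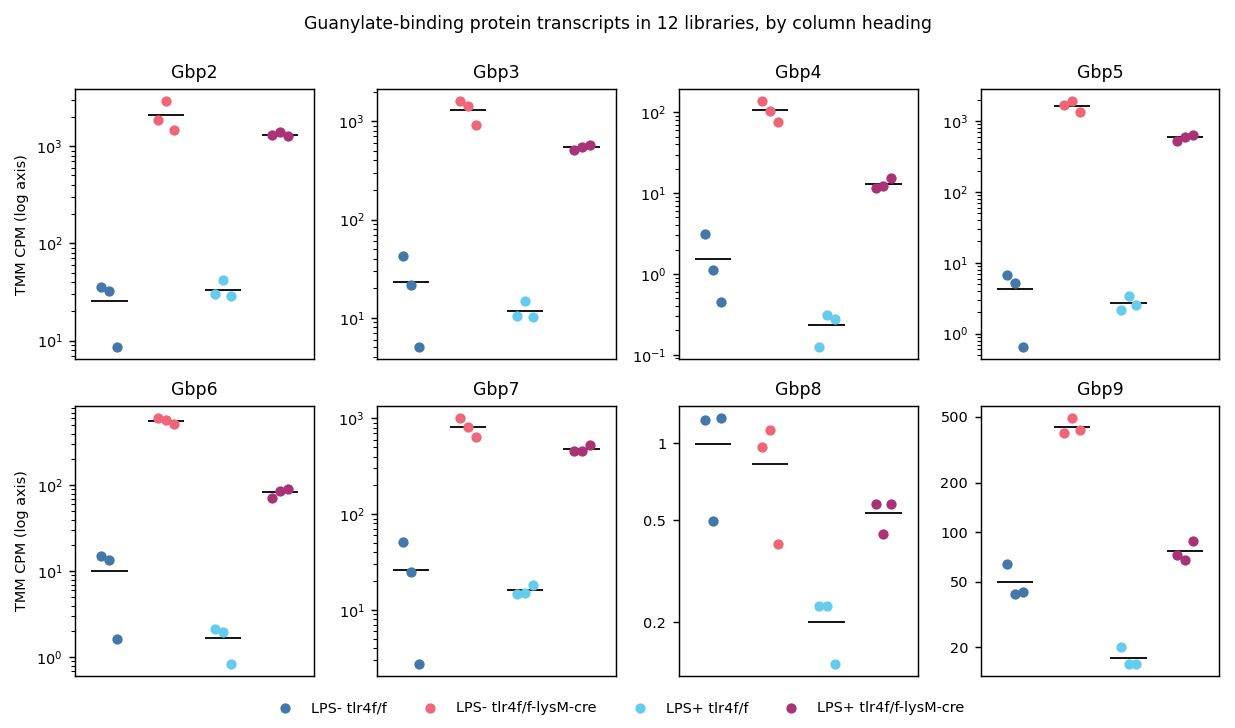
Level of each gene in 12 libraries, in TMM-scaled CPM on a log axis with a range of its own for each gene. Points are libraries, coloured by column heading, and black lines are group means. Gbp2 to Gbp7 and Gbp9 were highest under LPS- tlr4f/f-lysM-cre, with LPS+ tlr4f/f-lysM-cre next, and Gbp8 was at most 1.25 CPM.

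The first comparison set LPS+ tlr4f/f-lysM-cre against LPS+ tlr4f/f. As headed, this is the effect of genotype with LPS, and with the headings exchanged it is LPS against no treatment in tlr4f/f-lysM-cre. A DEG had a fold change over 2 and a Benjamini-Hochberg adjusted p under 0.01 in edgeR's quasi-likelihood test. Of the 8 genes, 7 were higher by this rule, against 10.8% of the 14540 genes tested, and all 8 were higher without overlap, against 33.2%. Their median log2 fold change was 5.41, where that of all genes was -0.02. Gbp5 rose most, by a log2 fold change of 7.76 (SE 0.161, adjusted p = 2.60e-09). Gbp4 followed with 5.78 (SE 0.235, adjusted p = 5.27e-10) and Gbp6 with 5.68 (SE 0.301, adjusted p = 2.61e-05). Gbp3 rose by 5.53 (SE 0.154, adjusted p = 4.45e-08), Gbp2 by 5.30 (SE 0.168, adjusted p = 2.12e-07) and Gbp7 by 4.92 (SE 0.103, adjusted p = 4.10e-11). The smallest DEG was Gbp9, at 2.14 (SE 0.126, adjusted p = 1.37e-06). Gbp8 missed the rule at 1.43 (SE 0.425, adjusted p = 0.0112). Leaving out any 1 of the 6 libraries left 7 DEGs. The fibroblast list summed to 22.6 to 30.9 CPM under LPS+ tlr4f/f-lysM-cre against 14.5 to 19.5 CPM under LPS+ tlr4f/f. In the same order, the endothelial list (Cdh5, Pecam1 and Kdr) summed to 9.95 to 15.7 CPM against 4.33 to 7.23 CPM. The dendritic cell list, of which Flt3 and Siglech had at most 3 counts, summed to 2.56 to 3.03 CPM against 0.189 to 0.649 CPM. The part of these differences in the result was not tested.

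The second comparison set LPS- tlr4f/f-lysM-cre against LPS- tlr4f/f. As headed, this is the effect of genotype without LPS, and with the headings exchanged it is LPS against no treatment in tlr4f/f. Of the 8 genes, 6 were higher, against 9.25% of 14635 genes, and 7 were higher without overlap, against 24.9%. Their median log2 fold change was 5.80, where that of all genes was -0.08. Gbp5 again rose most, by 8.59 (SE 0.994, adjusted p = 0.00178), and Gbp2 rose by 6.33 (SE 0.685, adjusted p = 0.00139). Gbp4 rose by 6.07 (SE 0.774, adjusted p = 0.00237), Gbp3 by 5.81 (SE 0.850, adjusted p = 0.00359) and Gbp6 by 5.78 (SE 0.865, adjusted p = 0.00386). Gbp9 had the smallest error and rose by 3.11 (SE 0.230, adjusted p = 0.000603). Gbp7 had a log2 fold change of 4.96 and missed the rule (SE 1.02, adjusted p = 0.0116). Gbp8 had -0.27 (SE 0.592, adjusted p = 0.744). The count was 2 without replicate 2 of LPS- tlr4f/f and was 7 without its replicate 3. It was 5 without replicate 1 of LPS- tlr4f/f and 4 without replicate 1, 2 or 3 of LPS- tlr4f/f-lysM-cre. Replicates 1 and 3 of LPS- tlr4f/f-lysM-cre and replicate 1 of LPS- tlr4f/f had the highest fibroblast markers. The neutrophil list summed to 12.5 to 160 CPM under LPS- tlr4f/f-lysM-cre against 0.523 to 12.1 CPM under LPS- tlr4f/f, although Ly6g was nearly absent. Over all 12 libraries, S100a8 reached 125 CPM and S100a9 32.9 CPM, where Mpo reached 2.86 CPM and Elane 0.622 CPM. In the same order of groups, the endothelial list summed to 39.1 to 122 CPM against 4.17 to 16.0 CPM. The higher of these sums were mostly Kdr, which reached 115 CPM, where Pecam1 reached 4.56 CPM and Cdh5 3.49 CPM in any library. The dendritic cell list summed to 2.91 to 6.13 CPM against 0.206 to 0.393 CPM. The part of these markers in the result was not tested.

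The high groups were compared next, LPS+ tlr4f/f-lysM-cre against LPS- tlr4f/f-lysM-cre. As headed, this is LPS against no treatment in tlr4f/f-lysM-cre, and with the headings exchanged it is tlr4f/f-lysM-cre against tlr4f/f, both with LPS. All 8 genes had a lower mean under LPS+ tlr4f/f-lysM-cre. Of these, 5 fell by the rule for DEGs, against 3.65% of 14234 genes, and 7 were lower without overlap, against 22.4%. The median log2 fold change was -1.37, where that of all genes was 0.03. Gbp4 fell by 3.004 on the log2 scale (SE 0.246, adjusted p = 0.00124), Gbp6 by 2.76 (SE 0.141, adjusted p = 0.000602) and Gbp9 by 2.502 (SE 0.145, adjusted p = 0.000749). The chromosome 3 genes moved less, with Gbp5 falling by 1.47 on the log2 scale (adjusted p = 0.00236, SE 0.156) and Gbp3 by 1.26 (SE 0.211, adjusted p = 0.00844). Gbp7, with a log2 fold change of -0.75 (SE 0.182, adjusted p = 0.0256), Gbp2, with -0.64 (SE 0.239, adjusted p = 0.0936), and Gbp8, with -0.63 (SE 0.461, adjusted p = 0.355), did not pass. The 4 genes on chromosome 3 had a median log2 fold change of -1.01 (range -1.47 to -0.64) and the 4 on chromosome 5 one of -2.63 (range -3.004 to -0.63), a difference between clusters that was not tested. Without replicate 1 or 2 of LPS+ tlr4f/f-lysM-cre no gene kept the call, and without its replicate 3 only 2 did, while the log2 fold changes of the 5 DEGs stayed between -3.21 and -1.11. Without replicate 1 or 3 of LPS- tlr4f/f-lysM-cre, which had the highest fibroblast markers, 4 and 5 were called. The endothelial list, mostly Kdr where high, summed to 39.1 to 122 CPM under LPS- tlr4f/f-lysM-cre against 9.95 to 15.7 CPM under LPS+ tlr4f/f-lysM-cre. In the same order, the fibroblast list summed to 120 to 1210 CPM against 22.6 to 30.9 CPM. The neutrophil list summed to 12.5 to 160 CPM against 4.55 to 6.40 CPM. The part of these lists in the result was not tested.

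The low groups were then compared, LPS+ tlr4f/f against LPS- tlr4f/f. As headed, this is LPS against no treatment in tlr4f/f, and with the headings exchanged it is tlr4f/f-lysM-cre against tlr4f/f without LPS. None of the 8 genes was a DEG by edgeR, as was 0% of 14701 genes, although 4 of the 8 had an unadjusted p under 0.05, against 24.7% of all. DESeq2 called 4 of the 8 lower and 493 genes in all, and limma voom called none of the 8 and 54 genes in all. Gbp9 was lower without overlap, with a log2 fold change of -1.50 (SE 0.202, adjusted p = 0.0452). Gbp4 at -2.69 (SE 0.801, adjusted p = 0.113) and Gbp8 at -2.29 (SE 0.510, adjusted p = 0.0721) were also lower without overlap, which 17.1% of all genes were. Gbp6 had -2.59 (SE 0.845, adjusted p = 0.133) and overlapped. On chromosome 3, Gbp3 had a log2 fold change of -0.96 (adjusted p = 0.436), Gbp7 -0.70 (adjusted p = 0.660), Gbp5 -0.61 (adjusted p = 0.662) and Gbp2 0.41 (adjusted p = 0.656). The median was -2.44 for the 4 genes on chromosome 5 and -0.65 for the 4 on chromosome 3, where that of all genes was -0.03.

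The comparison of LPS+ tlr4f/f-lysM-cre with LPS- tlr4f/f keeps its groups in either reading. Of the 8 genes, 3 were higher by the rule, against 6.92% of 14584 genes, and 7 were higher without overlap, against 29.1%. Gbp5 rose by 7.12 on the log2 scale (SE 0.899, adjusted p = 0.00227), Gbp2 by 5.69 (SE 0.597, adjusted p = 0.00126) and Gbp3 by 4.55 (SE 0.769, adjusted p = 0.00583). Gbp7 at 4.21 (SE 0.978, adjusted p = 0.0174), Gbp4 at 3.07 (SE 0.678, adjusted p = 0.0147) and Gbp6 at 3.03 (SE 0.755, adjusted p = 0.0219) missed the threshold on p. Gbp9 had a log2 fold change of 0.61 (SE 0.194, adjusted p = 0.0466) and Gbp8 one of -0.90 (SE 0.454, adjusted p = 0.162). Without replicate 3 of LPS- tlr4f/f, the library that stood apart, 6 genes were called, and without replicate 1, 2 or 3 of LPS+ tlr4f/f-lysM-cre 1 was called. These 5 comparisons share libraries and are not independent of each other.

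**Figure D3:**
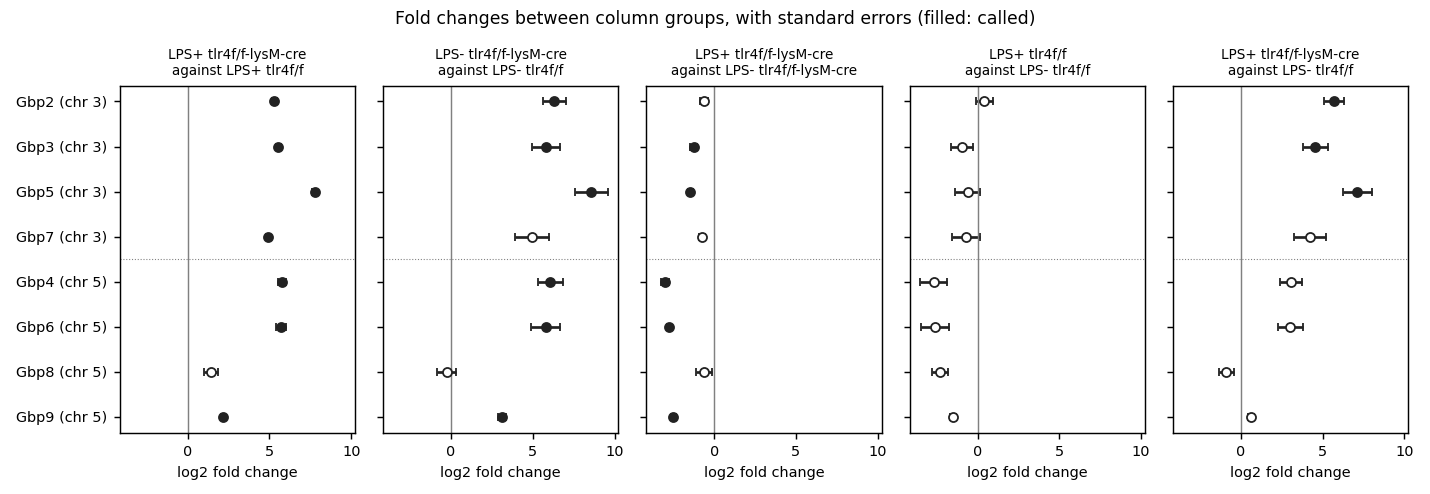
Log2 fold changes of the 8 genes in 5 comparisons of column groups, with standard errors from edgeR. Filled points are DEGs, and the dotted line parts chromosome 3 from chromosome 5. Gbp5 had the largest rise in the first 2 panels, and in the third panel Gbp4, Gbp6 and Gbp9 fell by 2.502 to 3.004 on the log2 scale.

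The interaction of genotype and LPS asks whether the change from LPS- tlr4f/f-lysM-cre to LPS+ tlr4f/f-lysM-cre differed from the change from LPS- tlr4f/f to LPS+ tlr4f/f, and its value is the same in both readings. None of the 8 genes was called by edgeR, against 0.659% of 15775 genes higher and 0.38% lower, and 2 of the 8 had an unadjusted p under 0.05, against 23.5%. DESeq2 called 1, Gbp9. Gbp9 had an interaction of -0.99 on the log2 scale (SE 0.252, adjusted p = 0.0411), from changes of -2.502 and -1.50. Gbp8 had 1.67 (SE 0.701, adjusted p = 0.177) and Gbp2 -1.05 (SE 0.612, adjusted p = 0.339).

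Levels were set against each other per kb of the transcript counted, since its length ran from 2455 bases in Gbp2 to 5622 bases in Gbp7. Under LPS- tlr4f/f-lysM-cre, the mean level was 845 CPM per kb for Gbp2, 542 for Gbp5, 430 for Gbp3, 146 for Gbp7, 125 for Gbp6, 77.8 for Gbp9, 23.3 for Gbp4 and 0.189 for Gbp8. Under LPS+ tlr4f/f-lysM-cre, it was 537 CPM per kb for Gbp2, 194 for Gbp5, 178 for Gbp3, 86.3 for Gbp7, 18.3 for Gbp6, 13.6 for Gbp9, 2.88 for Gbp4 and 0.121 for Gbp8. The order of the 8 genes was thus the same in both high groups, and the libraries of Gbp5 overlapped those of Gbp3 in each. Gbp2 with Gbp5, and Gbp7 with Gbp6, overlapped too under LPS- tlr4f/f-lysM-cre, but not under LPS+ tlr4f/f-lysM-cre. Under LPS- tlr4f/f, Gbp2 (10.4 CPM per kb), Gbp9 (8.90), Gbp3 (7.60) and Gbp7 (4.65) led, and Gbp5 was at 1.39. Under LPS+ tlr4f/f, Gbp2 (13.6 CPM per kb), Gbp3 (3.87), Gbp9 (3.09) and Gbp7 (2.83) led, and Gbp5 was at 0.902. Neighbours among the leading 4 overlapped in both low groups, apart from Gbp2 under LPS+ tlr4f/f. Gbp5 was thus below Gbp9 in the low groups and above it in the high groups.

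**Figure D4:**
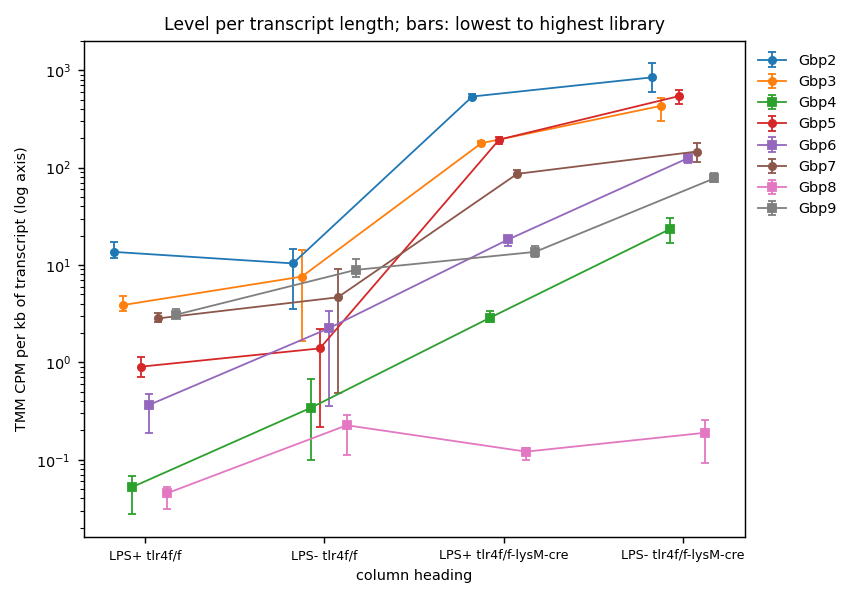
Mean level of each gene in CPM per kb of transcript (log axis) by column heading, ordered from low to high summed level. Bars run from the lowest to the highest of 3 libraries, circles are chromosome 3 genes and squares chromosome 5 genes. Gbp5 and Gbp9 change places between the low and the high groups, and Gbp8 has the lowest mean under every heading.

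The genes were counted on 41 transcript rows in all, and rows of a gene share most of their reads, so their values are not independent. From LPS- tlr4f/f-lysM-cre to LPS+ tlr4f/f-lysM-cre, the log2 ratio of mean CPM was between -3.27 and -3.01 over the 9 rows of Gbp4 and between -2.82 and -2.49 over the 5 rows of Gbp9. For LPS+ tlr4f/f-lysM-cre against LPS+ tlr4f/f, the 7 rows of Gbp3 had log2 ratios of 5.52 to 5.54. The 8 rows of Gbp8 had log2 ratios of -0.26 to 0.21 for LPS- tlr4f/f-lysM-cre against LPS- tlr4f/f. Shared windows with other Gbp transcripts made up 21.2% of Gbp8, 12.1% of Gbp4, 7.48% of Gbp9, 4.88% of Gbp3, 2.28% of Gbp7, 2.07% of Gbp2 and 0 of Gbp5. These shares are of GENCODE transcripts, whose length can differ from that of the row counted. It was 2459 against 4396 bases in Gbp8 and 4381 against 5604 bases in Gbp9. The positions given are RefSeq's. In the GENCODE annotation, models of Gbp4, Gbp8 and Gbp9 reach into each other and overlap in exons, and the library kit does not mark strand.

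The other guanylate-binding proteins in the table had at most 293 counts in a library. Gbp10 had 233 to 293 counts under LPS- tlr4f/f-lysM-cre and 41 to 49 under LPS+ tlr4f/f-lysM-cre, against 0 to 16 under LPS- tlr4f/f and 0 to 1 under LPS+ tlr4f/f. From LPS- tlr4f/f-lysM-cre to LPS+ tlr4f/f-lysM-cre, Gbp10 fell by 2.85 on the log2 scale (SE 0.199, adjusted p = 0.000997). Its transcript shares 50.3% of its 50-base windows with another Gbp transcript, and 45.8% with Gbp6. Some of its counts may therefore be reads of Gbp6, which was not tested. Gbp11, a pseudogene, had 44 to 104 counts under LPS- tlr4f/f-lysM-cre, 3 to 14 under LPS+ tlr4f/f-lysM-cre, 0 to 1 under LPS- tlr4f/f and 0 in all 3 libraries headed LPS+ tlr4f/f, where 0 counts allow up to 3. Gbp2b, which lies among the chromosome 3 genes, had 7 to 138 counts under LPS- tlr4f/f-lysM-cre and 66 to 74 under LPS+ tlr4f/f-lysM-cre, against 0 to 2 under LPS- tlr4f/f and 0 to 1 under LPS+ tlr4f/f. Its high groups overlapped, with a log2 fold change of -0.02 from LPS- tlr4f/f-lysM-cre to LPS+ tlr4f/f-lysM-cre (adjusted p = 0.986).

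Among 21 regulators of the pathway, from interferons and their receptors to STAT and IRF factors, 14 of 20 tested were higher DEGs under LPS+ tlr4f/f-lysM-cre than under LPS+ tlr4f/f, against 10.8% of all genes, and the median over the 20 was 1.33 on the log2 scale. Under LPS- tlr4f/f-lysM-cre against LPS- tlr4f/f, 13 of 20 were higher, against 9.25%, with a median of 1.93, and these medians were the same with Ifnb1 at its lower bound. Ifnb1, which encodes interferon-beta, had 96 to 150 counts under LPS- tlr4f/f-lysM-cre and 13 to 23 under LPS+ tlr4f/f-lysM-cre, against 1 to 2 under LPS- tlr4f/f and 0 in all 3 libraries headed LPS+ tlr4f/f. Ifng had at most 5 counts in any library. Irf1 rose by 2.33 for LPS+ tlr4f/f-lysM-cre against LPS+ tlr4f/f (SE 0.155, adjusted p = 2.17e-05) and by 2.98 from LPS- tlr4f/f to LPS- tlr4f/f-lysM-cre (SE 0.276, adjusted p = 0.000886). Stat2 rose by 2.41 (SE 0.0787, adjusted p = 1.55e-10) for LPS+ tlr4f/f-lysM-cre against LPS+ tlr4f/f, and fell by 1.10 on the log2 scale from LPS- tlr4f/f-lysM-cre to LPS+ tlr4f/f-lysM-cre (SE 0.142, adjusted p = 0.00385). Irf9, which acts with STAT2, was under the fold threshold, at 0.68 for LPS+ tlr4f/f-lysM-cre against LPS+ tlr4f/f. From LPS- tlr4f/f-lysM-cre to LPS+ tlr4f/f-lysM-cre, 5 of the 20 regulators were lower DEGs, against 3.65%, and none was higher.

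The immunity-related and other interferon-inducible GTPases that act beside guanylate-binding proteins rose in the same comparisons. Of the 10 in the table, Irgc1, with at most 16 counts in a library, was not tested. All 9 tested were higher DEGs under LPS+ tlr4f/f-lysM-cre than under LPS+ tlr4f/f, against 10.8% of all genes, with a median of 3.87. All 9 were also higher under LPS- tlr4f/f-lysM-cre than under LPS- tlr4f/f, against 9.25% of all genes, with a median of 3.84. Iigp1, which coats vacuoles of Toxoplasma, changed most among them, by 5.39 (SE 0.656, adjusted p = 0.00202) and 6.81 (SE 1.22, adjusted p = 0.00709). From LPS- tlr4f/f-lysM-cre to LPS+ tlr4f/f-lysM-cre, 4 of the 9 were lower DEGs, against 3.65% of all genes. Of 10 inflammasome genes, 8 were higher under LPS+ tlr4f/f-lysM-cre than under LPS+ tlr4f/f and 6 under LPS- tlr4f/f-lysM-cre than under LPS- tlr4f/f, where 10.8% and 9.25% of all genes were. Il1b changed most, by 9.66 (SE 0.106, adjusted p = 2.15e-14) and 10.15 (SE 1.78, adjusted p = 0.00673). A further list of 18 genes held ubiquitin ligases, the autophagy conjugation system, Sqstm1, prenyltransferase subunits (Fnta, Fntb and Pggt1b) and galectins (Lgals3 and Lgals8). Of these 18, 3 and 4 were higher in the same comparisons, against the same 10.8% and 9.25%, and 0 and 1 were lower. The largest were Rnf213 for LPS+ tlr4f/f-lysM-cre against LPS+ tlr4f/f, at 2.80 (SE 0.1001, adjusted p = 4.26e-09), and Trim21 for LPS- tlr4f/f-lysM-cre against LPS- tlr4f/f, at 2.91 (SE 0.194, adjusted p = 0.000480). Atg7, an autophagy enzyme, fell by 1.11 on the log2 scale from LPS- tlr4f/f to LPS- tlr4f/f-lysM-cre (SE 0.172, adjusted p = 0.00411).

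**Figure D5:**
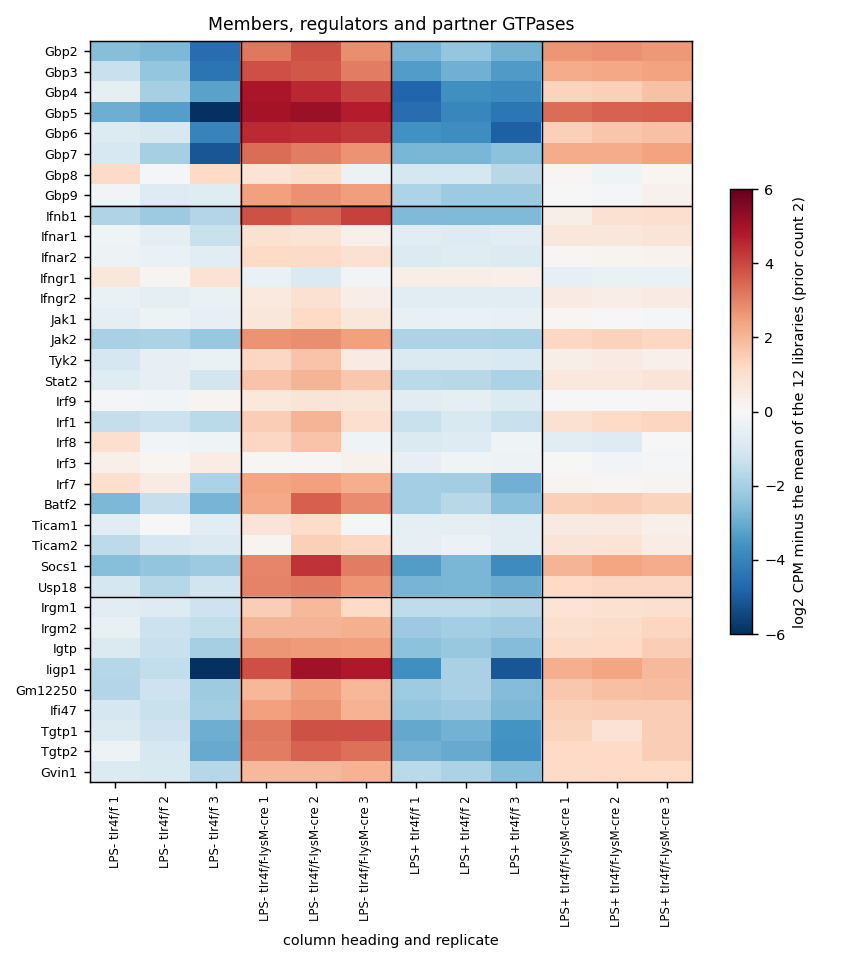
Log2 CPM (prior count 2) of 8 guanylate-binding proteins, 19 regulators and 9 partner GTPases, minus the mean of each gene over 12 libraries, with red high and blue low on a scale cut at 6 either way. Columns are libraries by heading and replicate. Gbp2 to Gbp7 and the GTPases are red under LPS- tlr4f/f-lysM-cre as well as LPS+ tlr4f/f-lysM-cre, while Ifngr1 is lower there than under the other headings.

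Across the 12 libraries, the 7 genes other than Gbp8 varied together, with Pearson's r between 0.787 and 0.996 over their 21 pairs, while the 7 pairs with Gbp8 had r between 0.231 and 0.599. These libraries fall into high and low groups, which the points share. Of 15764 other genes, those whose log2 CPM was most like the mean of the 8 were Socs3 (r = 0.997), Pnp (r = 0.996), Ifi205 (r = 0.996), Mndal (r = 0.996) and Naa25 (r = 0.996). Socs3 was at 2093 ± 436 CPM under LPS- tlr4f/f-lysM-cre and 471 ± 8.44 CPM under LPS+ tlr4f/f-lysM-cre, against 7.17 ± 5.21 CPM under LPS- tlr4f/f and 2.38 ± 0.707 CPM under LPS+ tlr4f/f.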

How the data were processed

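RNA of BMDMs was sequenced as 12 libraries of paired Illumina reads, which the study describes as polyA RNA sequencing. Per the submitters' processing notes, the authors trimmed reads with Trimmomatic 0.36, aligned them to mm10 with HISAT2 and counted with HTSeq. The authors deposited raw counts for 115140 transcripts, 106335 of RefSeq and 8805 of Ensembl, without normalization. Ensembl IDs were given symbols where a table held them (7551 of 7596), and for each of 43131 genes the transcript row with the highest total was kept, since rows of a gene share reads (the second row held a median of 97.0% of the first in 8073 genes). Between 33577087 and 56445268 counts per library remained. Reads carry no molecular identifiers, so limits from counts cover counting error only.

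Libraries were grouped by column heading. The tool was edgeR 4.0.16 in R 4.3.3 (its robust quasi-likelihood test, after filterByExpr and TMM factors), over the 6 libraries compared, and over 12 for the interaction, with Benjamini-Hochberg adjustment over all genes tested. DEGs had a fold change over 2 and an adjusted p under 0.01, the thresholds of the study, which used DESeq. Alternatives were RLE factors, DESeq2 1.42.0, voom of limma 3.58.1 with quality weights, no filter, a minimum of 10 counts, 12 libraries in 1 fit, replicate blocks, an adjusted p under 0.05, sums over transcript rows, exchanged headings, and each library left out. The fits were tested on simulated data. Genes named were the 8 members, Tlr4, Lyz2, Il1b, other Gbp genes, Ifnb1, Ifng, Irf1, Stat2, Irf9, the DEG with the largest fold of each other list in each direction between genotypes, and the 5 genes most alike over 12 libraries (log2 CPM, prior count 2). The result of 1 gene that the rule names is not reported here. Members and lists were chosen with earlier results of these data known. Marker lists of NK and B cells were also summed, and were at most 1.81 and 1.12 CPM. Motifs were searched on both strands from 250 bases before to 50 after each RefSeq start site.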

Additional observations from a re-analysis of the deposited data

Results flagged for a closer look

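Gbp9 had the only interaction of genotype and LPS among the 8 genes with an adjusted p under 0.05, and it missed the rule for DEGs. It was -0.985218 on the log2 scale (SE 0.252, edgeR adjusted p = 0.0411), since Gbp9 changed by -2.502 from LPS- tlr4f/f-lysM-cre to LPS+ tlr4f/f-lysM-cre and by -1.50 from LPS- tlr4f/f to LPS+ tlr4f/f. It was below 0 in all 12 fits that left out 1 library, between -1.20 and -0.88, with an adjusted p of up to 0.117. Exchanging the headings leaves this value as it is.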

How the results depend on the processing

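For LPS+ tlr4f/f-lysM-cre against LPS+ tlr4f/f, the count of 7 higher genes stayed between 6 and 8 under every alternative except the exchange of headings, and at 7 when any 1 library was left out. The count of 6 came with a minimum of 10 counts, where only 6 of the 8 genes were tested. For LPS- tlr4f/f-lysM-cre against LPS- tlr4f/f it was 6, and 3 with no filter, with 2 to 7 when 1 library was left out. From LPS- tlr4f/f-lysM-cre to LPS+ tlr4f/f-lysM-cre it was 5 lower, 3 with 12 libraries in 1 fit and 3 with the replicate block, with 0 to 5 when 1 library was left out. For LPS+ tlr4f/f-lysM-cre against LPS- tlr4f/f it was 3, and 6 with DESeq2, voom, 12 libraries in 1 fit or an adjusted p under 0.05, 1 with no filter and 1 with the replicate block, with 1 to 6 when 1 library was left out. For LPS+ tlr4f/f against LPS- tlr4f/f it was 0, and 4 lower with DESeq2, 1 with 12 libraries in 1 fit and 1 with an adjusted p under 0.05. For the interaction, DESeq2 called 1. Over all genes, DEGs numbered 3161 for LPS+ tlr4f/f-lysM-cre against LPS+ tlr4f/f (2045 with 12 libraries in 1 fit), 2497 for LPS- tlr4f/f-lysM-cre against LPS- tlr4f/f (4251 with 12 libraries in 1 fit, 1038 to 1682 without 1 library), 865 from LPS- tlr4f/f-lysM-cre to LPS+ tlr4f/f-lysM-cre (212 with the replicate block, 2176 with DESeq2, 4 to 1178 without 1 library), 1950 for LPS+ tlr4f/f-lysM-cre against LPS- tlr4f/f (922 with the block, 3088 with DESeq2, 592 to 2291 without 1 library), 0 for LPS+ tlr4f/f against LPS- tlr4f/f (493 with DESeq2, 0 to 184 without 1 library) and 164 for the interaction (634 with DESeq2, 10 to 306 without 1 library). The cause of these shifts was not tested.

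Replicate numbers were not treated as pairs, since same-numbered libraries did not all deviate together. For LPS- tlr4f/f with LPS- tlr4f/f-lysM-cre, their correlations were 0.472, 0.340 and 0.0143, and in the other 5 pairs of groups at least 1 was under 0.1.

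With the headings exchanged, LPS in tlr4f/f had 6 genes higher, Gbp2, Gbp3, Gbp4, Gbp5, Gbp6 and Gbp9. The log2 fold changes that turned in sign against those as headed were 5.81 for Gbp3, 6.07 for Gbp4, 8.59 for Gbp5, 5.78 for Gbp6, 3.11 for Gbp9 and, not called, 4.96 for Gbp7. LPS in tlr4f/f-lysM-cre had 7 higher and 0 lower (5.30 for Gbp2, 5.53 for Gbp3, 5.78 for Gbp4, 7.76 for Gbp5, 5.68 for Gbp6, 4.92 for Gbp7, 1.43 for Gbp8 and 2.14 for Gbp9). Genotype with LPS had 0 higher and 5 lower (-0.64 for Gbp2, -1.26 for Gbp3, -3.004 for Gbp4, -1.47 for Gbp5, -2.76 for Gbp6, -0.75 for Gbp7, -0.63 for Gbp8 and -2.502 for Gbp9). Genotype without LPS had 0 higher (-0.96 for Gbp3, -2.69 for Gbp4, -0.61 for Gbp5, -2.59 for Gbp6, -0.70 for Gbp7 and -1.50 for Gbp9). The summed level under the exchanged headings was 83.3 CPM for unstimulated tlr4f/f-lysM-cre and 6945 CPM for tlr4f/f with LPS. Summed over transcript rows, with the groups as headed, the level was 67.1 CPM under LPS+ tlr4f/f and 2229 CPM under LPS+ tlr4f/f-lysM-cre. It was 6077 CPM under LPS- tlr4f/f-lysM-cre and 151.9 CPM under LPS- tlr4f/f. Counts of rows that share reads are then added in every gene, and the cause of these shifts was not tested.

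Some uncalled values changed sign. With voom, Gbp8 had 0.0686 for LPS- tlr4f/f-lysM-cre against LPS- tlr4f/f, and Gbp6 an interaction of 0.10. Leaving out 1 library moved Gbp2 between -0.0020 and 0.75 and Gbp7 between -1.23 and 0.25 for LPS+ tlr4f/f against LPS- tlr4f/f, and Gbp8 between -0.589 and 0.0896 for LPS- tlr4f/f-lysM-cre against LPS- tlr4f/f. It moved the interaction of Gbp3 between -1.10 and 0.18, of Gbp4 between -1.28 and 0.13, of Gbp6 between -0.55 and 0.37 and of Gbp7 between -0.97 and 0.49. With 6 to 16 counts of Gbp4 and 8 to 11 of Gbp8 in a library, depth limits both under LPS+ tlr4f/f.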
